A study of Mus musculus with 20 samples.

Results

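The genes described here encode enzymes that remove oxidants, proteins that supply them with thiols, subunits of the enzymes that make oxidants, and the 2 ferritin chains. They are 42 listed genes of the 35579 genes in the data, and all 42 symbols were found in the annotation. The study took skin and muscle from the left hindlimb of wild-type C57BL/6J mice 70 days after treatment. Sham mice were not irradiated, and the other mice received 35 Gy of electrons from the same linear accelerator, set to FLASH or to conventional mode (CONV). FLASH radiotherapy delivers its dose at an ultra-high rate, in a fraction of a second, whereas conventional delivery is spread over a longer exposure. Each tissue had 3 sham, 4 FLASH and 3 CONV RNA sequencing libraries, and all groups shared strain, genotype and day of collection. The labels give neither age nor sex. Nothing in them says that replicates came from separate animals, so the spread behind each p-value is that of these libraries and could be technical.

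Cells meet oxidants with enzymes arranged in chains. Superoxide dismutases turn superoxide into hydrogen peroxide, which catalase, glutathione peroxidases and peroxiredoxins then reduce. Glutathione and thioredoxin return the glutathione peroxidases and peroxiredoxins to their working form. The transcription factor NRF2, encoded by Nfe2l2 and held back by KEAP1, raises many of these genes through antioxidant response elements in their promoters. Phagocytes make superoxide on purpose with the NADPH oxidase complex, and ferritin stores iron that would otherwise drive radical formation. In skin these systems work in keratinocytes, fibroblasts and immune cells. In muscle they accompany the heavy oxygen use of the fibres.

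The skin libraries summed to between 24396463 and 33250762 estimated counts. The muscle libraries were shallower, between 10198699 and 12336479. In 7 libraries the file carried the library name of another record, and for 6 of them the group by name differed from the group by record: skin sham 3 and FLASH 1, and muscle sham 2, sham 3, FLASH 2 and FLASH 3. Groups below follow the record. No CONV file was affected, so a comparison of the 3 CONV libraries with the other 7 of a tissue is the same either way, and it is given beside the others. Skin sham 1 and FLASH 2 held 33250 and 33640 CPM (estimated counts scaled to a common library size) summed over 17 skeletal muscle fibre markers, against 88.2 to 4305 in the other skin libraries, and these 2 are called muscle-rich below. The labelled tissues carried their markers: 12 keratinocyte markers summed to 9242 to 52940 CPM in skin and 7.46 to 24.8 CPM in muscle, where the muscle fibre markers summed to 69080 to 110300 CPM.

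Some of these enzymes carry selenocysteine, which is encoded by a TGA codon that would otherwise stop translation. The longest complete coding sequence of each member was searched, and 5 of 42 had an in-frame TGA before their final codon. The codon stands in capitals below, with up to 15 bases of coding sequence on each side, 5′ to 3′, from GENCODE M21 (GRCm38). The sites are shown because they divide the glutathione peroxidase family whose members are compared below.
Gpx1: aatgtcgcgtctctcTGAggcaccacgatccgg
Gpx2: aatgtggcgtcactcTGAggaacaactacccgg
Gpx3: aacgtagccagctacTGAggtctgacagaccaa
Gpx4: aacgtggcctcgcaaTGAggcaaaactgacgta
Txnrd1: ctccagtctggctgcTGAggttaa
In Gpx1, Gpx2, Gpx3 and Gpx4 the TGA was codon 47, 40, 73 and 129 of that coding sequence. In Txnrd1, thioredoxin reductase, it was codon 612 of 614, next to the end. Gpx7 and Gpx8, glutathione peroxidases of the endoplasmic reticulum, had no in-frame TGA.

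RefSeq promoters (GRCm38.p6, 250 bases before to 50 after the start) were present for 36 of the 42 members. The core of the antioxidant response element, TGACNNNGC on either strand, occurred in 7 of them (19.4%). It occurred in 14% of the 27025 genes with a promoter and in 12.4% of all 300-base windows. Below are the matches that lie before the start, with flanks of up to 20 bases on the gene's own strand and the match in capitals. On the opposite strand the match reads GCNNNGTCA. They are shown because NRF2 is the best known regulator of the list.
Nfe2l2, chr2:75704875-75704913, minus strand: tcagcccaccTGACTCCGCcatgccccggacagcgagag
Gclm, chr3:122245403-122245451, plus strand: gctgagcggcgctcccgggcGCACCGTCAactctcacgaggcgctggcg
Prdx1, chr4:116685446-116685494, plus strand: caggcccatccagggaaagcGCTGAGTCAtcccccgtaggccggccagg
Mgst1, chr6:138140451-138140499, plus strand: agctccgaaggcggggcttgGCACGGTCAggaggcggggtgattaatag
Txnrd1, chr10:82859094-82859142, plus strand: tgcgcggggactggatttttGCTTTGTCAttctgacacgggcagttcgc
Sod1, chr16:90220686-90220734, plus strand: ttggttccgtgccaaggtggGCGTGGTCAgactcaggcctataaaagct
The Srxn1 match began 29 bases after the start. The promoters of Cyba and Ftl1, the 2 members called below, held no match in this window, which says nothing of the factors that act on them. Their 100 bases before the start were as follows.
Cyba, chr8:122432941-122433040, minus strand: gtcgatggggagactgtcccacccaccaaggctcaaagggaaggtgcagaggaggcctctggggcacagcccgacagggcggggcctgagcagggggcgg
Ftl1, chr7:45459887-45459986, minus strand: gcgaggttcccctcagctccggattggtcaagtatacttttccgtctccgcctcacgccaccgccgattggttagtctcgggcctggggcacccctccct

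All 42 members had at least 1 CPM in 3 skin libraries. In muscle 41 did, and Gpx2, a peroxidase known from epithelia, stayed at 0 to 0.272 CPM there. TPM, which corrects for transcript length, allows levels of different genes to be compared. In sham skin the ferritin light chain gene Ftl1 (393 ± 33.0 TPM, SD, n = 3), Txnip (391 ± 154), whose product inhibits thioredoxin, and the ferritin heavy chain gene Fth1 (374 ± 81.1) stood highest, and their ranges overlapped. The lowest means in sham skin were those of Gpx7 (4.02 ± 1.42 TPM), Gsta4 (4.80 ± 3.55) and Nqo1 (6.25 ± 1.08). In sham muscle Fth1 led with 695 ± 105 TPM, ahead of Txnip with 210 ± 7.20 and Gpx4, the peroxidase that reduces lipid peroxides in membranes, with 125 ± 10.4. Sham is by record in these levels and in the tissue comparison below. Skin sham 3 and muscle sham 2 and sham 3 are named as FLASH libraries.

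Of the 42 members, 32 had higher TPM in every sham skin library than in any sham muscle library. Fth1 and Mgst3, a microsomal glutathione transferase, had the opposite order, and 8 members overlapped. The same counts over all genes are not set beside these, so the order cannot be called particular to the members. Hmox1, which breaks down heme, had 50.8 ± 13.8 TPM in sham skin and 1.88 ± 0.65 in sham muscle. Cybb, the catalytic subunit of the phagocyte oxidase, had 10.6 ± 4.02 and 0.827 ± 0.559 TPM. All skin libraries were batch 1 and all muscle libraries batch 2, so tissue and batch cannot be told apart. Among the 8 were the mitochondrial enzyme genes Sod2 (manganese superoxide dismutase), with 76.7 ± 22.5 and 77.5 ± 8.02 TPM, and Prdx3, with 27.5 ± 10.7 and 34.8 ± 3.61. Txn2 and Prdx5, whose products are also found in mitochondria, were higher in skin (91.7 against 47.9 TPM and 180 against 37.6). Sham 1, the muscle-rich library, held the highest sham skin values of Sod2 and Prdx3. Prdx3 had 39.8 TPM there, 21.4 and 21.1 in sham 2 and sham 3 of skin, and 30.7 to 37.1 in sham muscle. The part of muscle in these values was not tested.

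**Figure D1:**
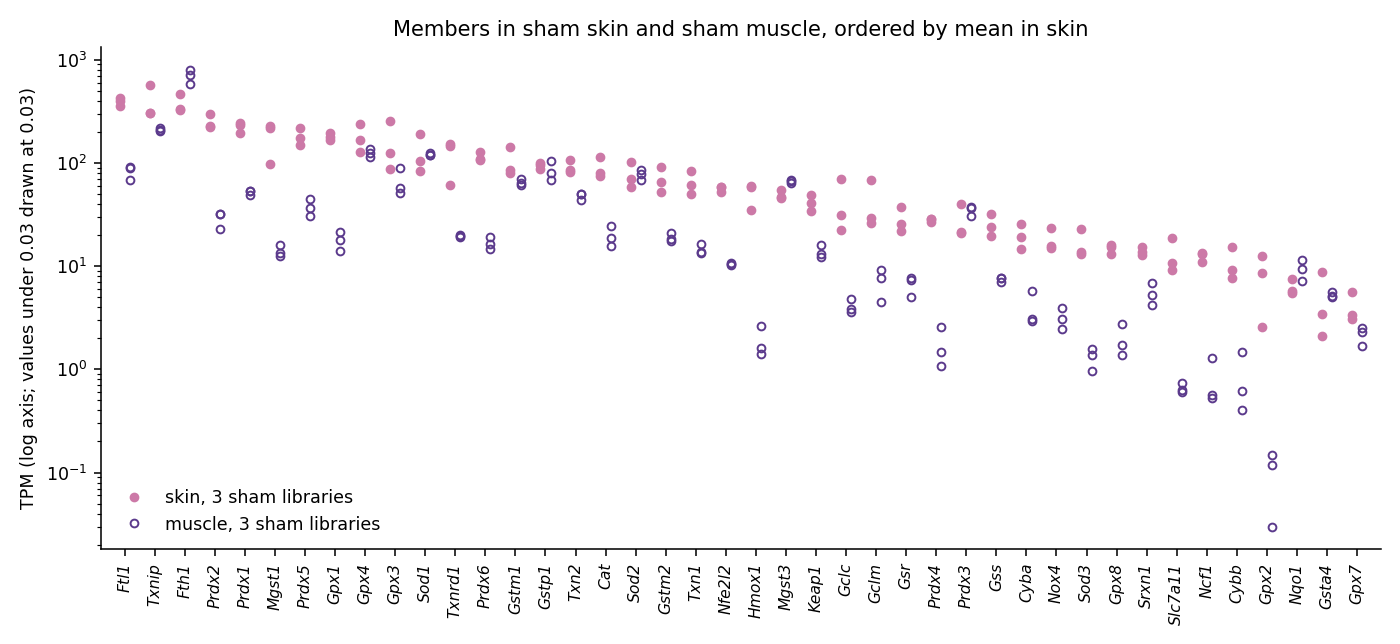
TPM of each member (x axis, ordered by mean in skin) in the 3 sham libraries of skin (filled) and of muscle (open), on a log y axis. In 32 members every skin point lies above every muscle point, and Fth1 and Mgst3 show the reverse.

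Most of these genes had a higher mean in skin after conventional irradiation than in FLASH or sham skin, but few differences passed correction over all genes. Cyba, which encodes the p22phox subunit of NADPH oxidase, and Ftl1 rose in CONV against the other 7 skin libraries. Against CONV alone, FLASH skin had lower values of both without passing the test. These genes were measured in pieces of whole tissue, where fewer cells of a type and less RNA per cell cannot be told apart.

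Against the other 7 skin libraries, edgeR's quasi-likelihood test with Benjamini-Hochberg adjustment called 2 of 42 members in CONV, both higher, where 1.65% of the 20026 genes tested were called and 1.58% were called higher. DESeq2 called 16 of the 42, beside 9.25% of the genes to which it gave an adjusted p. At an unadjusted p under 0.05, 18 members were higher and 2 lower, beside 14.1% and 9.35% of all genes. In all, 35 members were higher, with a median log2 fold change of 0.57 beside 0.00 for all genes tested. CONV lay above all other libraries in 4 members, Cyba, Gpx7, Slc7a11 and Srxn1, and below in none, beside 3.85% and 2.62% of all genes.

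In FLASH against CONV skin none of the 42 members was called, and 0% of all genes tested were. At an unadjusted p under 0.05, 16 members were lower in FLASH and 2 higher, beside 8.56% and 4.12% of all genes, and DESeq2 called 2, Cyba and Ftl1, beside 2.2% of its genes. In all, 35 members were lower in FLASH, with a median log2 fold change of -0.47 beside -0.01 for all genes. The CPM ranges did not overlap for 4 members, all lower in FLASH, beside 4.73% of all genes in that direction and 3.60% in the other. In CONV against sham none was called either, beside 0% of all genes, with 17 higher and 2 lower at an unadjusted p under 0.05 (12.0% and 8.13% of all genes) and 11 called by DESeq2, beside 7.18% of its genes. In that comparison 36 members were higher, with a median of 0.60, and CONV lay above sham without overlap in 14 and below in 2, Txnip and Cat, beside 13.6% and 14.3% of all genes. In FLASH against sham skin none was called by edgeR (0% of all genes) or DESeq2. None had an unadjusted p under 0.05 there, beside 0.459% of all genes higher and 0.200% lower, and 30 members were higher, with a median of 0.15. These comparisons share the CONV or the sham libraries and are not independent of each other.

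Among the oxidant-producing subunits, Cyba (ENSMUSG00000006519, chromosome 8, 122424776 to 122432930, minus strand, GRCm38) had 4.66, 6.53 and 5.17 CPM in the 3 sham skin libraries. It had 6.73, 6.41, 6.45 and 9.72 CPM in the 4 FLASH libraries and 10.3, 22 and 32.6 CPM in the 3 CONV libraries. Every CONV library was above every other library, the closest being FLASH 4 and CONV 1. CONV against the other 7 gave a log2 fold change of 1.73 ± 0.30 (SE, edgeR adjusted p = 0.0366), and FLASH against CONV gave -1.56 ± 0.35 (adjusted p = 0.249). CONV against sham gave 1.99 ± 0.39 (adjusted p = 0.127). The direction was the same without the 2 muscle-rich libraries (1.59, adjusted p = 0.19) and without the 2 libraries of disputed group (1.68, adjusted p = 0.229), but both ended the call.

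Ncf1, the p47phox organizer of the same complex, had 11.1 to 18.6 CPM over sham and FLASH skin and 17.9, 36.0 and 46.7 CPM in CONV. CONV 1 lay within the range of the others, and the other two CONV libraries lay above it. FLASH against CONV was -1.02 ± 0.31 (edgeR adjusted p = 0.278) and CONV against the other 7 was 1.06 ± 0.25 (adjusted p = 0.0621). Cybb had 11.3 to 28.5 CPM in sham and FLASH and 21.03, 27.4 and 58.0 CPM in CONV, so only CONV 3 stood above. Nox4, an oxidase of mesenchymal cells that makes hydrogen peroxide without phagocyte subunits other than p22phox, had 9.43 to 15.5 CPM in sham and FLASH and 12.4 to 22 in CONV.

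Markers of phagocytes moved with these genes. The 14 macrophage markers summed to 599, 1084 and 1475 CPM in the 3 CONV skin libraries, to 284 to 538 in sham and to 270 to 685 in FLASH. The 12 neutrophil markers summed to 268, 813 and 1034 CPM in CONV, to 33.6 to 43.6 in sham and to 27.8 to 133 in FLASH. All 14 macrophage and all 12 neutrophil markers had a higher mean in CONV, 3 and 9 of them without overlap, and none of them was at 0 throughout CONV or throughout the others. The 10 fibroblast markers summed to 6998 to 21200 CPM in CONV and to 2828 to 4985 in the others. FLASH 4 was highest of the 7 other libraries for all 3 sums. All 10 endothelial markers had a higher mean in CONV, with sums of 367 to 1006 CPM against 136 to 388 in the others. Of 12 adipocyte and 17 muscle fibre markers, none had a higher mean in CONV. The part of these cell types in the members' values was not tested.

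The ferritin chains store iron as a shell of heavy and light subunits. Ftl1 (ENSMUSG00000050708, chromosome 7, 45457944 to 45459884, minus strand) had 165, 154 and 163 CPM in sham skin. It had 153, 176, 164 and 243 CPM in FLASH and 215, 378 and 492 CPM in CONV. FLASH 4 exceeded CONV 1, and the other FLASH and sham libraries lay below all CONV libraries. CONV against the other 7 gave 1.06 ± 0.22 (edgeR adjusted p = 0.0474), and FLASH against CONV gave -0.98 ± 0.26 (adjusted p = 0.27). The call ended without the muscle-rich libraries (0.99, adjusted p = 0.197) and without those of disputed group (1.00, adjusted p = 0.234). The pseudogene Ftl1-ps1, which could share reads, had 1.31 to 4.55 CPM in skin.

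Fth1 had 213, 126 and 119 CPM in sham, 140, 198, 80.5 and 148 CPM in FLASH and 178, 362 and 555 CPM in CONV. CONV 1 lay within the range of the others. FLASH against CONV was -1.37 ± 0.41 (edgeR adjusted p = 0.275). The calls depended on single libraries. With CONV 1 left out, 6 members were called against the other libraries (Cyba, Ncf1, Fth1, Gpx7, Ftl1 and Gpx1), beside 6.47% of all genes in the same fit. Cyba and Ftl1 were then called in FLASH against CONV, beside 0.574%. With FLASH 4 left out, 13 were called against the others, beside 7.31% of all genes. With CONV 2 left out the only call was Nfe2l2, beside 0.727%. With CONV 3, any of the 3 sham libraries or FLASH 1, 2 or 3 left out, no member was called, while the log2 fold change of Cyba stayed between 1.28 and 2.07 over all 10 omissions.

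**Figure D2:**
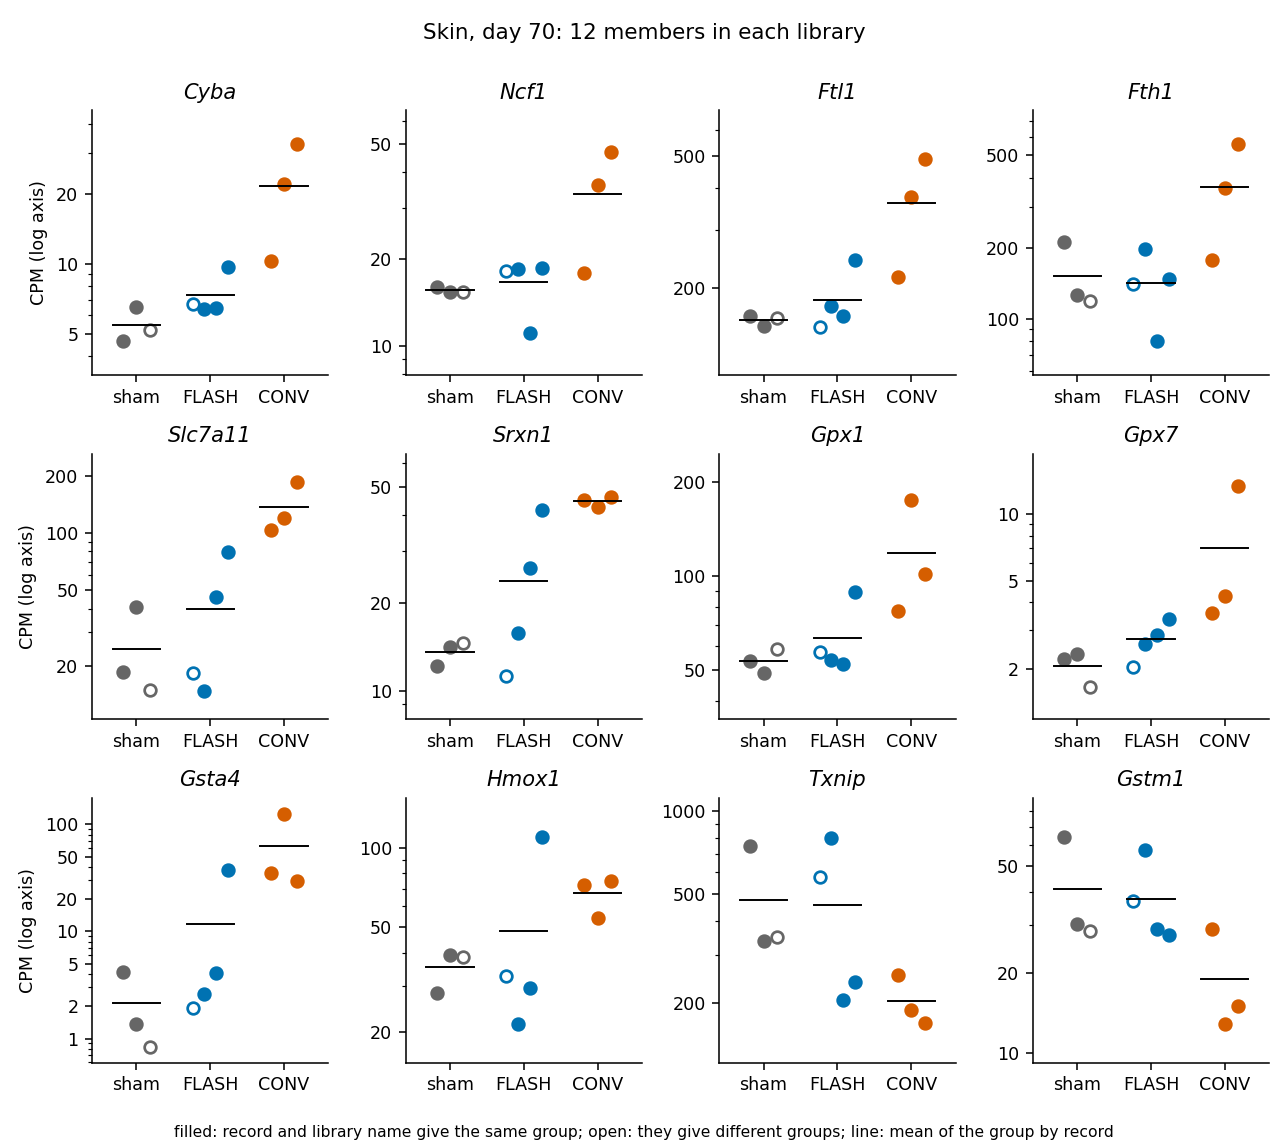
CPM (log axis) of 12 members in each skin library, by group, with the mean of each group as a line and open points for libraries whose group differs between record and library name. In Cyba, Slc7a11, Srxn1 and Gpx7 every CONV point lies above every other point, and FLASH 4 is the highest FLASH point in 9 of the 12 panels.

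Glutathione supply was uneven. Slc7a11, the cystine transporter that feeds glutathione synthesis, had 18.5, 40.6 and 14.9 CPM in sham skin. It had 18.3, 14.7, 46.3 and 79.3 CPM in FLASH and 104, 120 and 186 CPM in CONV. All CONV libraries were above all others, and FLASH spread over more than the sham range. Its log2 fold change was 2.04 ± 0.51 in CONV against the other 7 (edgeR adjusted p = 0.0668), 2.47 ± 0.66 against sham (adjusted p = 0.13) and -1.78 ± 0.59 in FLASH against CONV (adjusted p = 0.304). Gsr, glutathione reductase, had 28.6 to 56.8 CPM in sham and FLASH and 67.7, 39.4 and 147 CPM in CONV. The synthesis genes differed less between groups. Gclc and Gclm, the catalytic and modifier subunits of the rate-limiting ligase, had log2 fold changes of -0.04 ± 0.49 and -0.15 ± 0.33 in FLASH against CONV. Gss, the second enzyme, had 0.09 ± 0.15. Within groups Gclc varied, with 75.9 to 94.9 CPM in sham 2, FLASH 3, FLASH 4, CONV 1 and CONV 3 and 29.6 to 39.8 in the others. Gclm had 53.1 to 64.4 and 30.7 to 36.1 CPM in the same libraries. There 16 hair shaft markers summed to 4401 to 12870 CPM, against 19.9 to 1089 in the others. The part of hair in these values was not tested.

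The thioredoxin system split into members above and below. Srxn1, sulfiredoxin, which repairs overoxidized peroxiredoxins, had 12.2, 14.2 and 14.6 CPM in sham skin and 45.0, 42.5 and 46.1 CPM in CONV. By record the FLASH libraries had 11.2, 15.8, 26.4 and 41.6 CPM, from below every sham library to just under CONV, and none reached CONV. By library name sham held 11.2 to 14.2 CPM and FLASH 14.6 to 41.6, without overlap. The share of all genes that separate by name is not set beside this. Srxn1 had a log2 fold change of 1.71 ± 0.41 in CONV against sham (edgeR adjusted p = 0.127) and 0.80 ± 0.38 in FLASH against sham (adjusted p = 1). Txn1, cytosolic thioredoxin, had 23.6 to 91.7 CPM in sham and FLASH, with FLASH 4 highest, and 71.6, 172 and 81.8 CPM in CONV. Its log2 fold change in FLASH against sham was 0.76 ± 0.50 (adjusted p = 1). Txn2, its mitochondrial relative, was between 41.4 and 59.98 CPM in all 10 libraries, and Txnrd1 between 94.5 and 214.

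Txnip had lower values in CONV. It had 745, 336 and 348 CPM in sham, 574, 797, 206 and 238 CPM in FLASH and 253, 189 and 170 CPM in CONV. All CONV libraries were below all sham libraries, and FLASH 3 and FLASH 4 fell within the CONV range. The log2 fold change in CONV against the other 7 was -1.18 ± 0.45 (edgeR adjusted p = 0.157). The highest values came from sham 1 and FLASH 2, the muscle-rich libraries. Without them FLASH against CONV had no member higher at an unadjusted p under 0.05, where Txnip and Gstm1 had been.

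All 6 glutathione peroxidases had a higher mean in CONV than in the other skin libraries, with a median log2 fold change of 1.07, and none was called. Gpx1, the cytosolic form, had 53.7, 48.9 and 58.6 CPM in sham, 57.3, 54.1, 52.5 and 89.4 CPM in FLASH and 77.4, 176 and 102 CPM in CONV. Only FLASH 4 overlapped with CONV. Its log2 fold change was -0.90 ± 0.29 in FLASH against CONV (edgeR adjusted p = 0.288). Gpx7 had 1.66 to 2.32 CPM in sham, 2.04 to 3.37 in FLASH and 3.59, 4.27 and 13.3 CPM in CONV, a log2 fold change of 1.54 ± 0.37 against the other 7 (adjusted p = 0.0621).

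Other peroxidases depended on CONV 3 or FLASH 4. Gpx3, the secreted plasma form, had 723 CPM in CONV 3 against 40.2 to 212 CPM in the other 9 libraries. Gpx8 had 16.2 CPM in CONV 3 against 5.10 to 7.44 elsewhere. Gpx2 had 8.15 to 13.7 CPM in CONV, 1.502 to 5.17 in sham and 2.14 to 13.2 in FLASH, where FLASH 4 was highest. Its log2 fold change in FLASH against sham was 0.81 ± 0.62 (edgeR adjusted p = 1). Gpx4 overlapped, with -0.06 ± 0.28 in FLASH against CONV, and its highest values were in FLASH 2, CONV 2 and sham 1. Gpx1 and Gpx4 carry the selenocysteine codon shown above and Gpx7 does not. Their values in CONV against the other 7 were 1.00 ± 0.25, 0.15 ± 0.25 and 1.54 ± 0.37.

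Among the dismutases and catalase, the extracellular enzyme gene Sod3 varied most. Sod3 had 47.3, 23.7 and 22.3 CPM in sham, 46.9, 22.6, 13.1 and 44.6 CPM in FLASH and 80.6, 38.1 and 257 CPM in CONV. CONV 2 overlapped with the others, and the log2 fold change in FLASH against CONV was -1.98 ± 0.65 (edgeR adjusted p = 0.305). Sod1, the cytosolic copper-zinc enzyme, had -0.06 ± 0.31 and Sod2 -0.60 ± 0.43. Cat had 49.7 to 85.5 CPM in CONV, below all 3 sham libraries (87.4 to 165), with FLASH at 83.8 to 133. Its log2 fold change in CONV against sham was -0.65 ± 0.32 (adjusted p = 0.28).

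No peroxiredoxin was called, and the group had a median log2 fold change of -0.28 in FLASH against CONV and 5 of 6 lower. Prdx5, which is found in mitochondria and peroxisomes, had 61.3 to 80.2 CPM in sham and FLASH and 92.3, 243 and 76.0 CPM in CONV, so CONV 2 stood apart. Prdx6 was also highest in CONV 2, at 158 CPM against 59.2 to 103 in the other 9 libraries. CONV 2 had the largest keratinocyte marker sum, 52940 CPM against 9242 to 24100 in the other skin libraries. Its part in these values was not tested. Prdx1, Prdx2, Prdx3 and Prdx4 had log2 fold changes of -0.30 to 0.12 in FLASH against CONV.

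Glutathione transferases attach glutathione to reactive molecules. Gsta4, whose enzyme clears the lipid peroxidation product hydroxynonenal, had 4.21, 1.36 and 0.83 CPM in sham skin. It had 1.95, 2.59, 4.08 and 37.8 CPM in FLASH and 34.9, 126 and 29.5 CPM in CONV. FLASH 4 lay in the CONV range and the other FLASH libraries in the sham range. Gsta4 had a log2 fold change of 4.90 ± 1.39 in CONV against sham (edgeR adjusted p = 0.139), 2.45 ± 1.21 in FLASH against sham (adjusted p = 1) and -2.44 ± 1.11 in FLASH against CONV (adjusted p = 0.403).

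Gstm1 went the other way, with 64.0, 30.3 and 28.5 CPM in sham, 37.1, 57.2, 29.2 and 27.6 CPM in FLASH and 29.1, 12.9 and 14.95 CPM in CONV. Its highest values were again in sham 1 and FLASH 2. Gstm2, Mgst1 and Mgst3 had differences of -0.06 to 0.24 in FLASH against CONV. Gstp1 had 73.2 CPM in CONV 2 and 25.8 to 46.5 in the other libraries, and its near copy Gstp2 had 2.31 to 11.96 CPM in skin, so reads may have been divided between them.

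Of the regulators, Nfe2l2 had 57.0 to 62.9 CPM in sham skin, 60.1 to 81.6 in FLASH and 109, 67.9 and 154 CPM in CONV. CONV 2 was below FLASH 4, and all CONV libraries were above sham. The log2 fold change was -0.71 ± 0.24 in FLASH against CONV (edgeR adjusted p = 0.316) and 0.79 ± 0.21 in CONV against the other 7 (adjusted p = 0.0769). Keap1 had 42.3 to 63.9 CPM over all 10 libraries, with a difference of -0.02 ± 0.17. Nqo1, a quinone reductase often used to read NRF2 activity, had 3.70 to 6.08 CPM in sham, 3.13 to 7.56 in FLASH and 6.30 to 9.45 in CONV. Hmox1 had 28.3 to 39.3 CPM in sham and 72.4, 54.1 and 74.8 in CONV, while FLASH held 21.5 to 32.7 CPM in 3 libraries and 110 in FLASH 4, the highest of all 10.

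**Figure D3:**
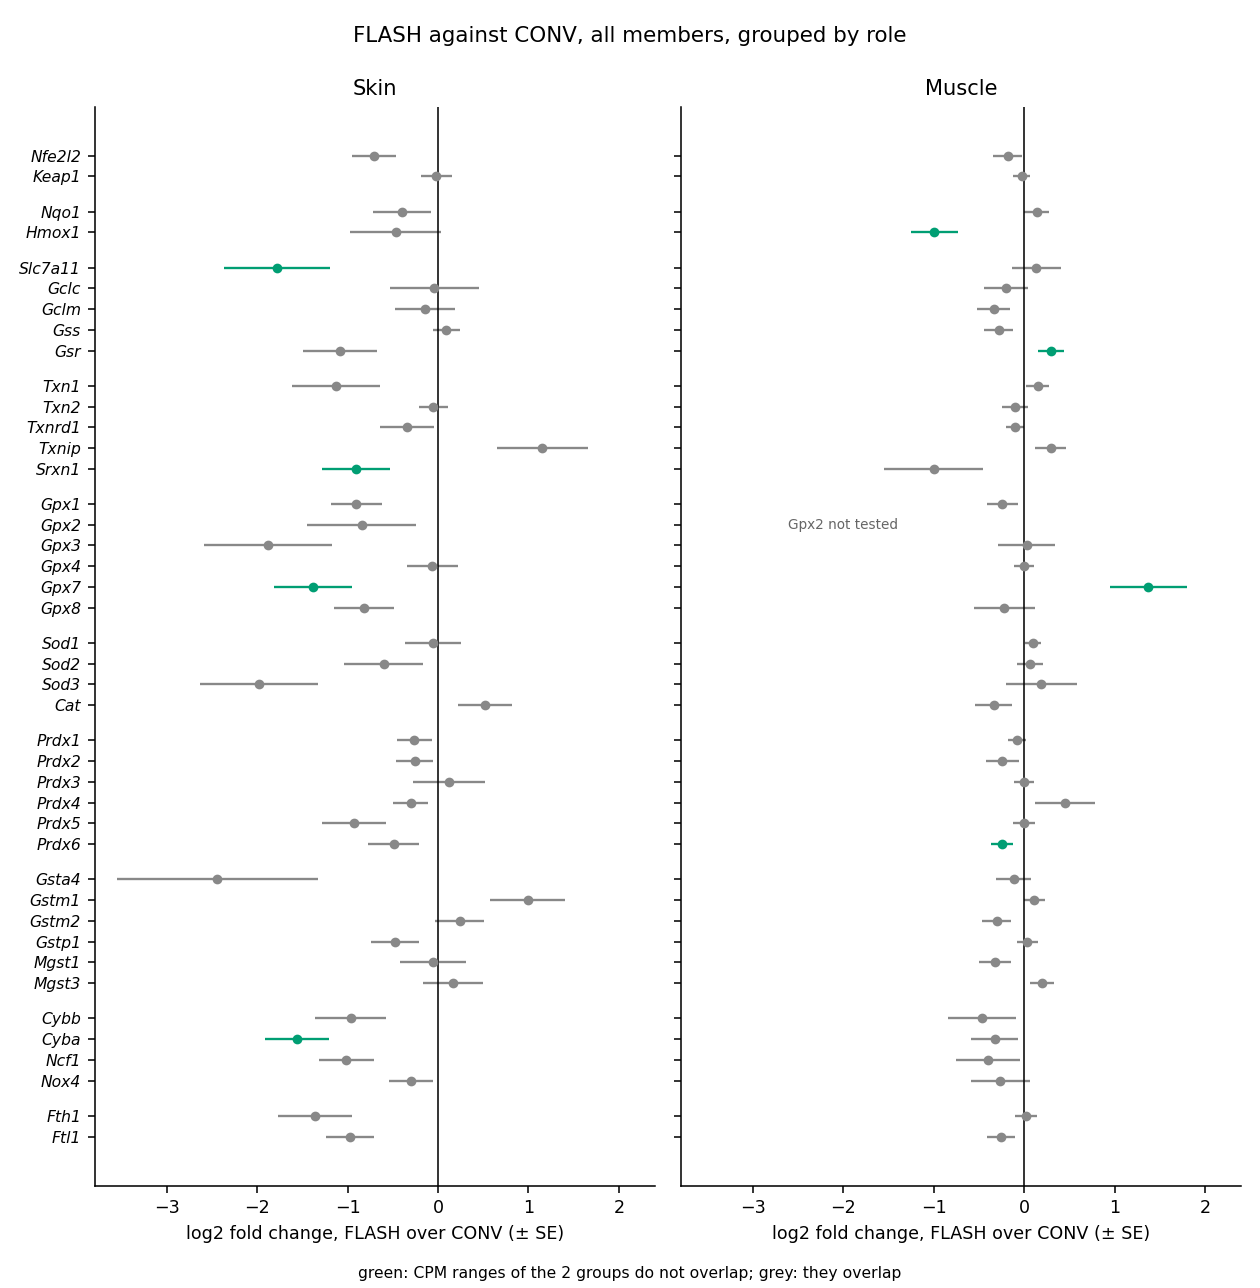
Log2 fold change of FLASH over CONV with its SE (x axis) for every member (y axis, grouped by role) in skin and muscle, green where the CPM ranges of the groups do not overlap. In skin 35 of 42 points lie below 0 and none was called, and in muscle 25 of 41 do and none was called.

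Further genes of the same pathways were taken from 4 lists of 100 genes in all. In CONV against the other 7 skin libraries, 1 of 32 tested glutathione, thioredoxin and repair genes was called higher, as were 1 of 20 iron and metal genes, 2 of 27 NRF2-responsive genes and 3 of 19 oxidant-producing genes, beside 1.58% of all genes called higher. None was called lower. Slc11a1, the iron transporter of phagosomes, had 2.12 to 9.41 CPM in sham and FLASH and 9.46, 19.4 and 39.5 CPM in CONV (log2 fold change 2.43 ± 0.48, edgeR adjusted p = 0.0419). Nos2, the inducible nitric oxide synthase, had 14.5 and 17.8 CPM in CONV 2 and CONV 3, and 1.03 in CONV 1 against 0.16 to 1.68 in the others (3.64 ± 0.72, adjusted p = 0.0428). Ncf4 and Rac2, the p40phox subunit and the GTPase of the phagocyte oxidase, rose by 2.03 ± 0.42 and 1.37 ± 0.29. Selenom, a selenoprotein of the endoplasmic reticulum, rose by 1.46 ± 0.27, Esd by 0.95 ± 0.18 and Maff by 1.11 ± 0.24. The iron list had 18 of 20 genes higher, with a median of 0.53, the glutathione list 17 of 32, with a median of 0.04, the NRF2-responsive list 18 of 27, with 0.28, and the oxidant-producing list 15 of 19, with 0.35. In the other skin comparisons no gene of the 4 lists was called. The smallest p in FLASH against CONV belonged to Selenom (-1.35, edgeR adjusted p = 0.249) and Esd (-0.85, adjusted p = 0.249).

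In muscle no member passed the test after either modality. None of the 41 tested members was called in CONV against sham, FLASH against CONV or FLASH against sham, where 0.00765%, 0.00765% and 0% of the 13080 genes tested were called. DESeq2 gave an adjusted p to 21, 40 and 42 members in these comparisons and called none of them. In CONV against sham it gave none to Hmox1 or Gpx7. At an unadjusted p under 0.05 the counts were 2 higher and 3 lower in CONV against sham (4.79% and 5.24% of all genes), and 1 and 1 in FLASH against CONV (4.23% and 4.07%). In FLASH against sham there was none (1.62% and 0.879% of all genes). Median log2 fold changes were 0.07, -0.10 and -0.06. The biological coefficient of variation was 0.173 in muscle and 0.428 in skin.

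Of the members, Hmox1 had the smallest p in CONV against the other muscle libraries. Hmox1 had 1.53, 1.86 and 2.78 CPM in sham muscle, 2.11, 2.35, 1.43 and 2.36 in FLASH and 3.15, 5.39 and 3.84 CPM in CONV. All CONV libraries were above all others. The log2 fold change was 1.00 ± 0.29 in CONV against sham (edgeR adjusted p = 0.324), -0.99 ± 0.26 in FLASH against CONV (adjusted p = 0.352) and 1.00 ± 0.22 against the other 7 (adjusted p = 0.112). Against the other 7, 0.0612% of all genes were called and no member was. At an unadjusted p under 0.05 there were 3 members higher and 3 lower (5.83% and 6.06% of all genes), and Hmox1 alone lay outside the range of the others, above it (1.98% of all genes above and 2.47% below). With files assigned by library name, Hmox1 was called in CONV against sham (1.21 ± 0.28, adjusted p = 0.0467), beside 1.25% of all genes. In CONV muscle 12 of 14 macrophage markers had a higher mean, with sums of 70.0 to 91.2 CPM against 29.0 to 89.4 in the other libraries, and 8 of 8 erythroid markers did, with sums of 128 to 1752 CPM in CONV and 66.0 to 606 in the others. The 12 neutrophil markers summed to 5.40 to 11.2 CPM in CONV and to 2.48 to 4.08 in the others, and 11 had a higher mean in CONV, while Ly6g was at 0 in all 10 muscle libraries and Camp, Ltf and Retnlg were at 0 outside CONV. The part of these cells in the Hmox1 values was not tested.

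Gpx7 had lower values in CONV muscle, with 0.27, 0.966 and 0.491 CPM, against 1.43, 0.848 and 2.15 CPM in sham and 1.48, 1.48, 1.43 and 1.72 CPM in FLASH. The CONV and FLASH ranges did not overlap, and sham 2 lay within CONV. The log2 fold change in FLASH against CONV was 1.38 ± 0.42 (edgeR adjusted p = 0.41), and in CONV against the other 7 it was -1.35 ± 0.38 (adjusted p = 0.175). These levels are close to 1 CPM. Gsr was the other member with FLASH above CONV in every library (0.30 ± 0.14, adjusted p = 0.598), and Hmox1 and Prdx6 (-0.25 ± 0.12, adjusted p = 0.601) lay below. Those are 2 above and 2 below among 41 by record, beside 4.48% and 4.21% of all genes. By library name the FLASH ranges of Gpx7 (0.848 to 2.15 CPM), Gsr (9.06 to 12.04) and Prdx6 (15.97 to 21.54) overlapped CONV. That of Hmox1 (1.865 to 2.78 CPM) stayed below CONV.

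Gstm2 had 12.4, 15.3 and 11.7 CPM in sham muscle and 20.04, 19.8 and 16.2 in CONV, without overlap (0.51 ± 0.17, edgeR adjusted p = 0.378). Mgst3 had 45.4, 52.8 and 47.2 CPM in sham and 30.8, 41.1 and 39.6 in CONV, also without overlap (-0.38 ± 0.14, adjusted p = 0.4). Sod1 and Txn1 were the other members below sham in every CONV library, at -0.19 ± 0.09 and -0.26 ± 0.13. By record 2 members thus lay above and 3 below, beside 7.66% and 7.76% of all genes. By library name Gstm2 had 12.4 to 17.4 CPM in sham and overlapped CONV, while Mgst3, Sod1 and Txn1 still lay below sham in CONV. Txnip had 359, 199 and 225 CPM in CONV and 282 to 370 in the other libraries. In CONV against the other 7 its log2 fold change was -0.36 ± 0.16 (edgeR adjusted p = 0.384), and with CONV 1 left out it was called, as were 0.666% of all genes. Srxn1 had 36.2 CPM in CONV 2 and 6.71 to 11.7 in the other 9 muscle libraries.

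The file assignment changed the FLASH and sham comparison in muscle. By record 28 of 41 members were lower in FLASH than in sham, with a median of -0.06, and by library name 28 were higher, with a median of 0.11. The same figures for all genes are not set beside these, so the turn cannot be called particular to the members. The 4 members with the smallest p by record were Txnrd1 (-0.16 ± 0.10), Prdx4 (0.47 ± 0.33), Mgst1 (-0.24 ± 0.18) and Mgst3 (-0.18 ± 0.13), all with an edgeR adjusted p of 0.999. Txnrd1 and Mgst1 turned to 0.11 and 0.30 by library name. Cybb had 1.43, 2.37 and 4.13 CPM in the sham records and 3.44, 1.48, 1.54 and 2.90 in the FLASH records. The 3 libraries named as sham held 1.43 to 1.54 CPM and the 4 named as FLASH 2.37 to 4.13, a log2 fold change of 1.11 ± 0.27 (adjusted p = 0.224) by name.

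**Figure D4:**
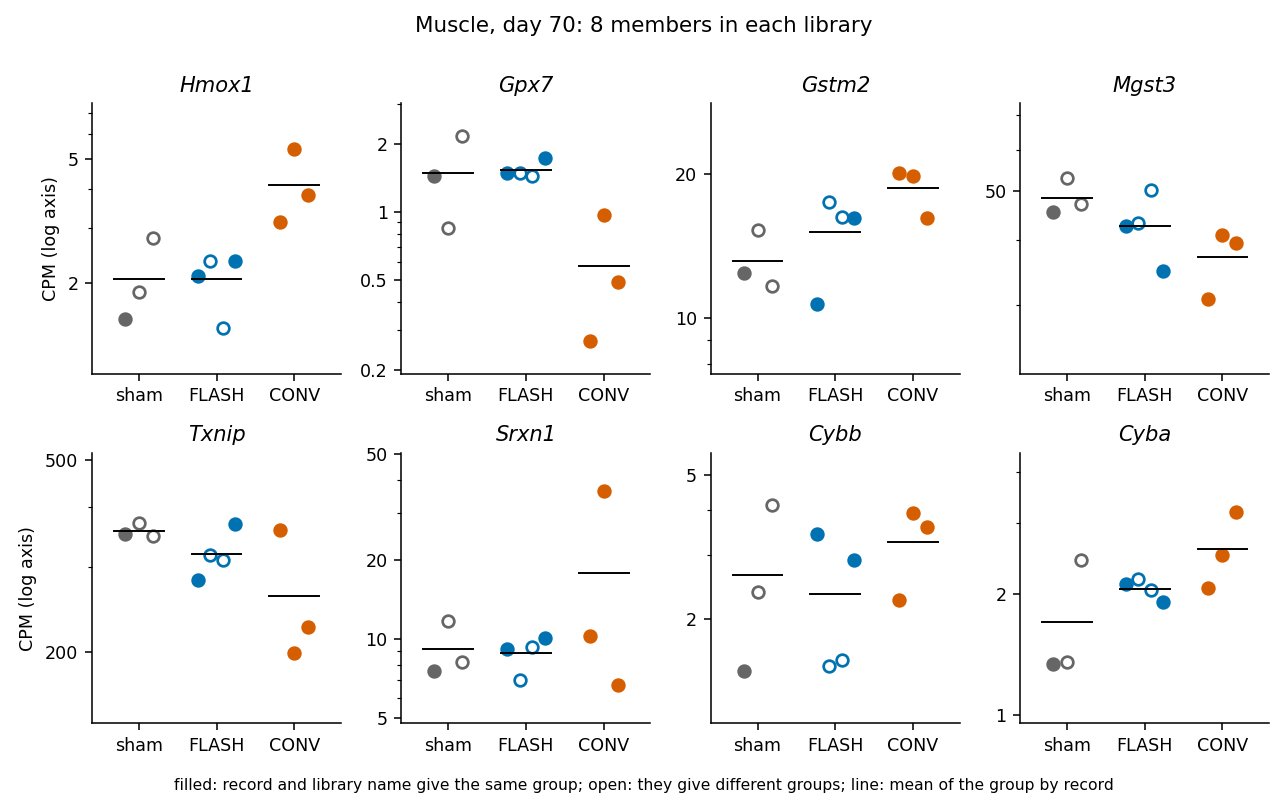
CPM (log axis) of 8 members in each muscle library, by group, with group means as lines and open points where record and library name give different groups. CONV lies above all other points for Hmox1, and the open points of Cybb lie high in sham and low in FLASH.

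Of the 100 further pathway genes, 83 were tested in muscle and none of them was called in any of the 4 comparisons. The smallest p in CONV against the other 7 belonged to Cp, the copper enzyme ceruloplasmin that oxidizes iron, and to Mt1, a metallothionein. Cp had 8.83 to 14.9 CPM in CONV and 4.50 to 8.48 in the others (0.77 ± 0.18, edgeR adjusted p = 0.141). Mt1 had 5.66, 17.5 and 4.17 CPM in CONV and 1.43 to 3.63 in the others (1.79 ± 0.42, adjusted p = 0.153).

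The difference between the tissues was tested itself, as an interaction over all 20 libraries taken as independent. The library names use the same numbers in both tissues, so skin and muscle may come from the same animals, which the fit did not take into account. No member was called for FLASH against CONV (0.0156% of 19199 genes) or for CONV against the other 7 (0.109%). At an unadjusted p under 0.05, 11 members had a lower skin value and 1 a higher one in FLASH against CONV, beside 6.22% and 3.87% of all genes. For CONV against the other 7 there were 15 higher and 3 lower, beside 9.70% and 6.72%. Gpx7 had the smallest p in both, at muscle levels close to 1 CPM. Its skin value minus its muscle value was -2.78 ± 0.65 for FLASH against CONV (edgeR adjusted p = 0.253). For CONV against the other 7 it was 2.92 ± 0.58 (edgeR adjusted p = 0.0549). Next for CONV against the other 7 were Fth1 (1.41 ± 0.39, adjusted p = 0.103), Gsr (1.46 ± 0.41, adjusted p = 0.111) and Cyba (1.30 ± 0.41, adjusted p = 0.138). For FLASH against CONV the same genes had differences of -1.40 ± 0.45, -1.40 ± 0.47 and -1.24 ± 0.45. With DESeq2, Gpx7 was called in the first, beside 0.549% of its genes, and Fth1, Gpx7 and Gsr in the second, beside 3.14%.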

How the data were processed

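RNA from 10 skin and 10 muscle samples was sequenced after ribosomal RNA depletion with a stranded total RNA kit, per the labels. The deposited files give an estimated count and a TPM value per transcript, made by the authors with kallisto (version 0.5.0, mm10, per the submitters' processing notes). The annotation release is not given in the sources used here. Estimated counts were summed to genes through GENCODE M21 (98.45% of 116116 transcripts matched, and unmatched ones held 0.873% to 1.85% of counts) and rounded. CPM values use TMM scaling. Comparisons used edgeR 4.0.16 in R 4.3.3 (quasi-likelihood, robust, genes kept by filterByExpr on the groups), p-values were adjusted by Benjamini-Hochberg across every gene tested, and genes under 0.05 were called. Each tissue's 3 groups shared a fit, and CONV against the other 7 was fitted with 2 groups. DESeq2 1.42.0 and limma 3.58.1 on log2(TPM + 1) were alternatives. Scripts were tested on simulated data. kallisto divides reads between similar copies, so such values are uncertain.

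The members and the other gene lists were chosen with earlier results of these data known. Full statistics are given for called members and for up to 4 members with the smallest p in each comparison, and values by library for further members were added by role after they were seen. From the other lists up to 3 called genes per direction, or up to 2 with the smallest p, are named for each comparison, and the remaining called genes were added. Selenocysteine codons were looked for in GENCODE coding sequences, since a protein table was not used here.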

Additional observations from a re-analysis of the deposited data

Results flagged for a closer look

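In groups of 4 libraries, 83 sets of FLASH values were checked for a library whose gap to the nearest other library exceeded Dixon's critical share of the group's range, and 9 were found, where chance gives about 1 in 20. In skin, FLASH 4 was high for 4 members: Hmox1 (110 CPM, the others 21.5 to 32.7), Gpx1 (89.4, the others 52.5 to 57.3), Gsta4 (37.8, the others 1.95 to 4.08) and Cyba (9.72, the others 6.41 to 6.73). FLASH 2 was high for Keap1 (58.4 CPM, the others 45.8 to 47.9), and FLASH 3 was low for Ncf1 (11.1 CPM, the others 18.2 to 18.6). In muscle, FLASH 3 was low for Gclc (5.63 CPM, the others 8.26 to 8.67) and high for Gsta4 (3.99 CPM, the others 2.81 to 2.96), and FLASH 2 was low for Gss (6.54 CPM, the others 8.83 to 9.11). The muscle libraries FLASH 2 and FLASH 3 are named as sham libraries.

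For Gpx7, FLASH by record lay below CONV in every skin library and above it in every muscle library. By library name FLASH held 0.848 to 2.15 CPM in muscle and overlapped CONV, while in skin it stayed below CONV. The muscle values of Gpx7 rest on 3 to 24 counts per library. In skin CONV 3 had 13.3 CPM, against 3.59 and 4.27 in CONV 1 and CONV 2 and up to 3.37 in FLASH. The skin value minus the muscle value was -2.78 on the log2 scale, and the interaction test gave an edgeR adjusted p of 0.253.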

How the results depend on the processing

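Counts of called members depended on few libraries and on the tool. In CONV against the other 7 skin libraries the 2 calls became 16 with DESeq2, 1 with DESeq2 size factors in edgeR, 0 with limma on TPM, 0 without the libraries of disputed group, 0 without the 2 muscle-rich libraries, and 0 to 13 with single libraries left out. In CONV against sham skin the 0 calls became 11 with DESeq2 and 0 to 3 with single libraries left out. In FLASH against CONV skin they became 2 with DESeq2 and 0 to 2. In muscle, CONV against sham gave 1 by library name and 0 to 1 with single libraries left out, and CONV against the other 7 gave 1 without a filter and 0 to 2. For skin minus muscle, FLASH against CONV gave 1 with DESeq2 and 0 to 1, and CONV against the other 7 gave 3 with DESeq2, 6 with limma and 0 to 5. The share of all genes called moved too: in skin CONV against the other 7 it was 9.25% with DESeq2, 1.56% with its size factors and 0% to 7.31% with single libraries left out, against 1.65%. The cause of these shifts was not tested. For that comparison the share is not given here with limma, without the disputed libraries or without the muscle-rich libraries. For the other comparisons the share of all genes is given for only some settings. Counts without their share say nothing particular of the members.

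In muscle FLASH against sham, Mgst1 (-0.24) reversed to 0.30 by library name, 0.019 with limma and 0.15 without the disputed libraries, and Txnrd1 (-0.16) reversed to 0.11 by library name. Over all alternatives for the named members, 731 values kept direction and side of the threshold, 34 passed it newly, 23 no longer passed it and 4 reversed.

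Within a tissue, the 9 pairs of same-numbered libraries correlated between -0.80 and 0.44 in skin and between -0.32 and 0.27 in muscle. The 24 pairs with different numbers correlated between -0.70 and 0.74 in skin and between -0.22 and 0.33 in muscle. Same-numbered libraries thus did not stand out, but so few pairs cannot tell whether the numbers pair the samples. With the replicate number as a block, CONV against the other 7 gave 8 calls in skin, beside 6.45% of all genes, and 4 for skin minus muscle, beside 1.8%. No count of called members moved in the other comparisons under the block.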
